A study of Mus musculus with 12 samples.

Results

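Nfil3, Tef, Hlf, Cebpa, Cebpb, Cebpd and Cebpg, genes of the C/EBP and PAR families of basic leucine zipper (bZIP) transcription factors, were followed through RNA-seq counts of mouse hippocampal slices. They were listed by name, with earlier results of these data known, and no measured value enters the rule itself. They are 7 of the 41091 gene IDs in the count tables. The slices came from male wild-type C57BL/6 mice of 2 to 3 months, and the dentate gyrus had been cut away. Chemical long-term potentiation (LTP) slices received 50 uM forskolin, which raises cAMP, and after 5 min the same drug with 30 mM KCl and 10 mM Ca2+, so that treatment lasted 10 min in all; control slices were kept for the same 10 min in 0.2% DMSO, the vehicle. Freezing followed 1 hr or 3 hr later, which gave 4 groups of 3 libraries, control and LTP at each time. Within a time point each animal gave slices to both conditions. Stimulation was chemical and reached the whole slice, and the study sequenced samples in which qPCR had shown Arc induction, so the LTP libraries were selected for a response.

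C/EBP proteins bind DNA as homodimers or heterodimers. C/EBPα, C/EBPβ and C/EBPδ are known as activators of myeloid, metabolic and acute phase genes, while C/EBPγ lacks a transactivation domain of its own and acts mainly through its partners. TEF and HLF belong to the PAR (proline and acidic amino acid-rich) group together with DBP, and they activate genes through the D-box of circadian output. NFIL3, also called E4BP4, binds the same D-box and represses it, so that NFIL3 and the PAR factors are known as opposed regulators, and C/EBPβ is a much studied factor of long-term memory in the hippocampus.

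Libraries held from 37118382 to 50815001 counts, and each of the 7 genes had at least 424 counts in every library. Levels are in CPM, counts scaled to the library's total with TMM factors. 1 hr control replicate 2, which the study set aside as an outlier of its sample clustering, was left out of the tests; its values are printed with the others. Calls required a fold change over 1.2 besides an adjusted p under 0.1. Neuronal markers summed to between 6120 and 7770 CPM in the fitted libraries and astrocytic markers to between 4410 and 5310 CPM, while all 6 markers of blood leukocytes averaged under 0.1 CPM. Markers of dentate granule neurons (Prox1, C1ql2 and Dsp) still summed to between 112 and 213 CPM. In such whole-tissue libraries, fewer cells of a type and less RNA per cell cannot be told apart.

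In GRCm38 with the GENCODE M21 annotation, Nfil3 lies on the minus strand at chr13:52967209-52981073 with 2 exons and shares no exonic base with another gene. Hlf (minus strand, chr11:90336536-90390895) likewise overlaps none. Cebpa (plus strand, chr7:35119293-35121928) and Cebpg (minus strand, chr7:35046422-35056573) sit on the same chromosome, and Tef is at chr15:81802421-81826863 on the plus strand. These 3 genes share 1.93%, 1.37% and 2.45% of their exonic bases with other genes. The single-exon genes Cebpb (plus strand, chr2:167688915-167690418) and Cebpd (plus strand, chr16:15887286-15891031) share more, 20.7% of exonic bases with Tmem189 and 15% with Spidr, both on the opposite strand. Whether counting used strand is not given in the sources used here, so the values of Cebpb and Cebpd are uncertain to that extent. All 7 genes are protein-coding.

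RefSeq promoter windows of GRCm38.p6 (250 bases before to 50 after an annotated start) were found for 6 of the 7 genes, all except Cebpd. The bases before the start are shown for the genes that LTP moved, for Cebpb and for Hlf, because forskolin acts through cAMP and the windows differ in cAMP response element letters. Nfil3 is printed from chr13:52981074-52981289 (minus strand; the 34 bases nearest the start lie inside the GENCODE transcript and are left out), Cebpa from chr7:35119043-35119292 (plus strand), Cebpb from chr2:167688665-167688914 (plus strand) and Hlf from chr11:90390918-90391167 (minus strand). Each runs 5′ to 3′ on the strand of its gene, and capitals mark TGACG or its reverse complement CGTCA, the full element TGACGTCA, or TATAAA.
Nfil3: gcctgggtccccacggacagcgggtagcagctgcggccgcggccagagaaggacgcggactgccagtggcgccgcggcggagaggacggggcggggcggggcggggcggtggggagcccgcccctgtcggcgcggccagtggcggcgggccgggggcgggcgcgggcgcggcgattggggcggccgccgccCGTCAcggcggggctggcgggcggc
Cebpa: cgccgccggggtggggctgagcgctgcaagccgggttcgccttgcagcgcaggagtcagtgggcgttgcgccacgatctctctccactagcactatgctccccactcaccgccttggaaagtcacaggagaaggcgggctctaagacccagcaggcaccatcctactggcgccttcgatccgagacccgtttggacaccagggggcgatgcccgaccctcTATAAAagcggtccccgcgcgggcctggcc
Cebpb: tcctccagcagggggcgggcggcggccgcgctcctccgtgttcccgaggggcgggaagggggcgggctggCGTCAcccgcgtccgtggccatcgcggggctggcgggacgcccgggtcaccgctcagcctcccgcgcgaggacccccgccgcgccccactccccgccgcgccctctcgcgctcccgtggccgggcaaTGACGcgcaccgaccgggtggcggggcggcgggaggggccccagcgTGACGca
Hlf: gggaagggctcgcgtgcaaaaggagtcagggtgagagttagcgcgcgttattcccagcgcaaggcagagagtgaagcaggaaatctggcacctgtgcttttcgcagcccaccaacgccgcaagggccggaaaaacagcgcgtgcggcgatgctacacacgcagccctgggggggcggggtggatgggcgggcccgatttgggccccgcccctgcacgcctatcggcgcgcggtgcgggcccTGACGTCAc
The letters TGACG, searched on both strands and contained in the full element, occurred in 20.8% of the 32851 windows. Cebpb held them 3 times, 180 bases before the start on the opposite strand and 53 and 7 bases before it on the strand of the gene. Positions are those of the first base in the orientation of the gene. Nfil3 held them once on the opposite strand, 59 bases before the start. The full element TGACGTCA, present in 1.79% of windows, was found in Hlf alone among the 6 genes, 9 bases before the start. Cebpa held neither, but TATAAA, found in 13.6% of windows on either strand, began 30 bases before its start. In Cebpb TATAAA lay within the 50 bases after the start. The D-box letters TTANGTAA (2.32% of windows) and the C/EBP letters TTGCNNAA (10.8%) were in no window of the 6 genes. Such matches describe letters and do not show binding.

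To compare levels between genes, CPM was divided by exonic length in kb. The study describes its expression analysis as based on reads in coding regions, and whether that holds for the count tables, which also list non-coding genes, is not stated. The order below assumes reads from whole exons and may differ for coding reads. Tef stood far above the rest, with 37.9 ± 1.53 CPM per kb in 1 hr control (SD, n = 2), followed by Nfil3 at 10.7 ± 0.121. Cebpb (7.38 ± 0.142) and Cebpg (6.85 ± 0.023) came next, and the libraries of these neighbours did not overlap. Cebpa (5.62 ± 0.637), Cebpd (5.5 ± 0.597) and Hlf (4.99 ± 0.83) were lowest, and each overlapped the next in that order. At 3 hr the order of the controls differed: Cebpb, at 16.1 ± 2.02 CPM per kb (SD, n = 3), stood above Nfil3 at 13.7 ± 0.47, although their libraries overlapped. In 3 hr LTP Nfil3 was above Cebpb again, at 23.3 ± 0.635 against 16.2 ± 2.93 CPM per kb, without overlap. Hlf had the lowest mean in all 4 groups, and Tef the highest.

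**Figure D1:**
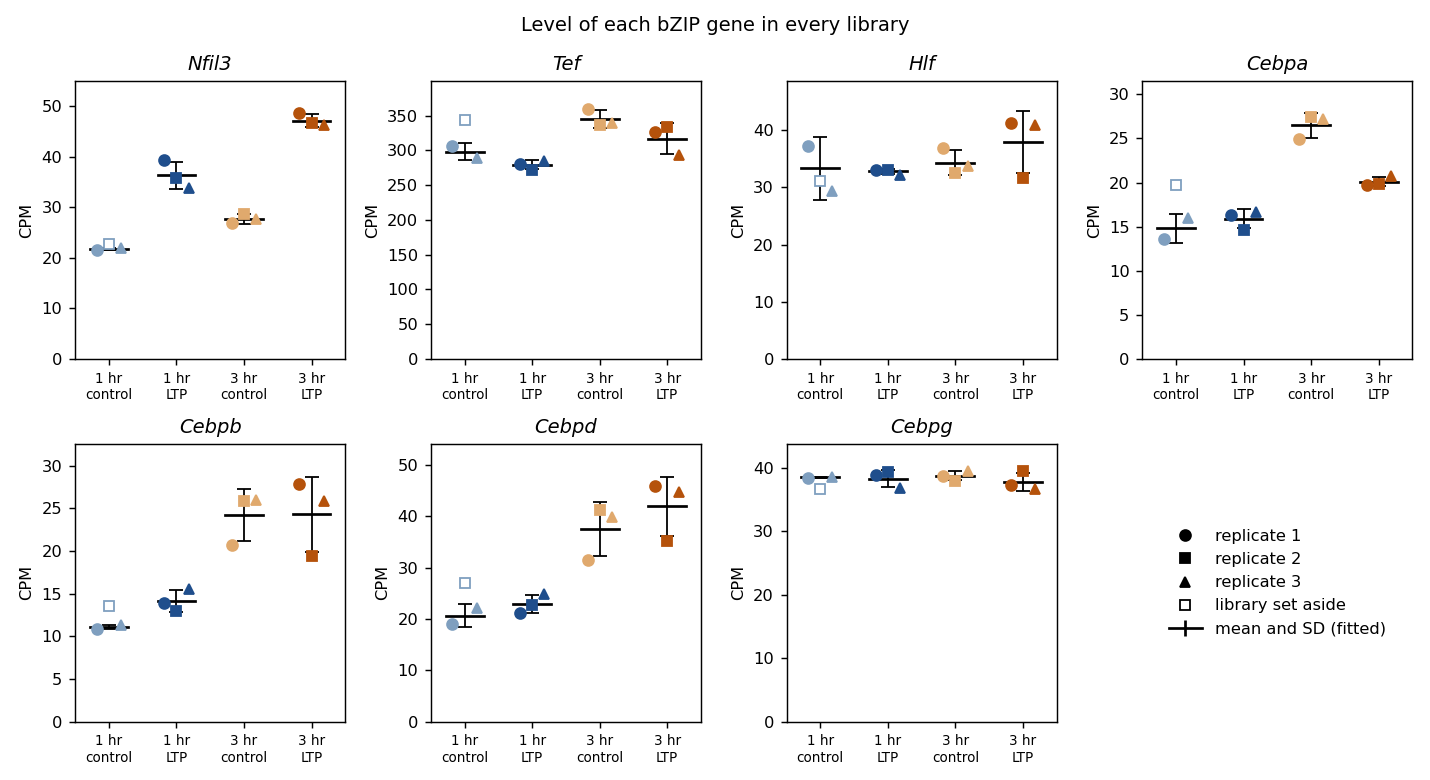
Level of the 7 genes in CPM (vertical axes, from 0) in each of the 12 libraries, by group; symbols give the replicate number, the open square is the 1 hr control library set aside, and lines with bars are the mean and SD of the fitted libraries. Nfil3 is higher in LTP than in control libraries at both times, Cebpa is highest in 3 hr control, Cebpb and Cebpd are higher at 3 hr than at 1 hr, and Cebpg stays between 36.7 and 39.5 CPM.

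Nfil3, the D-box repressor, rose after LTP at both time points, by 1.68-fold at 1 hr and 1.72-fold at 3 hr. The 1 hr control replicates 1, 2 and 3 had 21.5, 22.8 and 21.9 CPM, and the 1 hr LTP replicates had 39.3, 35.7 and 33.9 CPM. The 3 hr control libraries gave 26.8, 28.7 and 27.7 CPM, and the 3 hr LTP libraries 48.6, 46.7 and 46.2 CPM. Every LTP library thus lay above every control library of either time point. The log2 fold change was 0.75 (SE 0.0887, 95% interval from 0.56 to 0.94, edgeR adjusted p = 0.000334) at 1 hr and 0.78 (SE 0.0666, 0.63 to 0.93, edgeR adjusted p = 0.00102) at 3 hr. Its p ranked 33 of the 17736 genes tested at 1 hr and 19 of the 17508 tested at 3 hr. Within animals the log2 ratio of LTP to control was 0.86, 0.64 and 0.63 at 1 hr, and at 3 hr it was 0.86, 0.7 and 0.74. The call held in every alternative fit at both times, and over them the log2 fold change ran from 0.69 to 0.8 at 1 hr and from 0.76 to 0.81 at 3 hr. At 1 hr Nfil3 was the single gene of the 7 that was called, 1 of 7 against 0.778% of all tested genes called higher. At 3 hr, where 5.07% of all tested genes were called higher, it was again the single gene of the 7 called in that direction. Among cell type markers, the mural gene Myh11 was called lower after LTP at 1 hr (-0.68, edgeR adjusted p = 0.0465). Mural markers summed to between 154 and 157 CPM in the fitted 1 hr control libraries and between 132 and 145 CPM in 1 hr LTP. Endothelial markers summed to between 84.5 and 91.1 CPM and between 71.8 and 75.2 CPM. The set-aside 1 hr control library had 141 CPM for mural markers, within the LTP range, and 84.6 CPM for endothelial markers. The part of these markers in the 1 hr results was not tested.

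Tef and Hlf, the D-box activators among the 7 genes, did not pass the test after LTP. Tef measured 306, 343 and 289 CPM in 1 hr control replicates 1, 2 and 3 against 281, 272 and 284 CPM in 1 hr LTP. At 3 hr it was 359, 336 and 339 CPM in control and 327, 333 and 293 CPM in LTP. The fitted groups did not overlap at either time and the LTP value was below its own control in all 6 animal pairs, but the difference was small: the log2 fold change was -0.083 (95% interval from -0.22 to 0.06, edgeR adjusted p = 0.92) at 1 hr and -0.11 (-0.26 to 0.05, edgeR adjusted p = 0.421) at 3 hr. With the set-aside library the 1 hr value was -0.16 (edgeR adjusted p = 0.607). Non-overlap was common, since the fitted groups were apart for 22.6% of all genes at 1 hr and 27% at 3 hr, against 3 of the 7 at each time (Cebpb, Nfil3 and Tef, then Cebpa, Nfil3 and Tef).

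Hlf lay within 29.4 and 41.2 CPM in all 12 libraries. Its 1 hr control values of 37.2, 31.1 and 29.4 CPM enclosed the 1 hr LTP values of 33, 33 and 32.2 CPM, with a log2 fold change of -0.014 (95% interval from -0.22 to 0.2, edgeR adjusted p = 0.997). At 3 hr the control libraries had 36.8, 32.5 and 33.7 CPM and the LTP libraries 41.2, 31.6 and 40.9 CPM, so the groups overlapped through LTP replicate 2 (0.16, interval from -0.1 to 0.41, edgeR adjusted p = 0.469). Without that library Hlf was called at 3 hr, with a log2 fold change of 0.28 and an edgeR adjusted p of 0.0518, so whether Hlf was called depended on that library.

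With Tef and Hlf near their control level, the ratio of Nfil3 to Tef plus Hlf, each in CPM per kb, followed Nfil3. It was 0.239, 0.234 and 0.262 in 1 hr control replicates 1, 2 and 3 and 0.476, 0.446 and 0.409 in 1 hr LTP. At 3 hr it was 0.258, 0.298 and 0.283 in control and 0.503, 0.489 and 0.526 in LTP. All LTP libraries had a ratio above that of all controls. Dbp, also a PAR factor, is not part of this ratio, and the ratio was not tested. These are mRNA levels, and no protein was measured here.

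**Figure D2:**
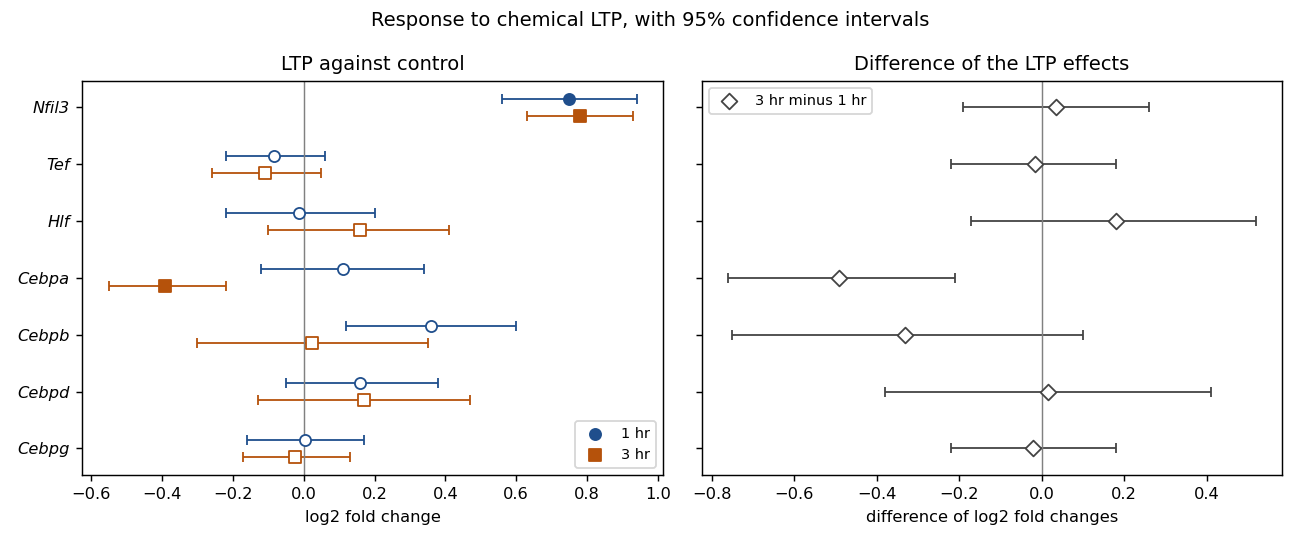
Log2 fold change of LTP against control at 1 hr (circles) and 3 hr (squares) on the left, and the difference of the 2 effects on the right, with 95% confidence intervals from edgeR; filled symbols passed the call. Nfil3 lies at 0.75 and 0.78, Cebpa at 0.11 and -0.39, and the intervals of the other genes include 0 except that of Cebpb at 1 hr.

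Cebpa, whose protein is a master regulator of myeloid cells, was lower in LTP than in control slices at 3 hr. The 3 hr control replicates had 24.9, 27.4 and 27.2 CPM and the 3 hr LTP replicates 19.7, 19.8 and 20.7 CPM, without overlap. Cebpa fell by 23.6% (log2 fold change -0.39, SE 0.0733, 95% interval from -0.55 to -0.22, edgeR adjusted p = 0.0274), with within-animal log2 ratios of -0.33, -0.46 and -0.4. It was the single gene of the 7 called lower, where 1.53% of all tested genes were. The direction was the same in every alternative fit, but the call was lost when 3 hr control replicate 2 (edgeR adjusted p = 0.168), 3 hr control replicate 3 (0.106) or 3 hr LTP replicate 1 (0.127) was left out. Offsets for GC content and exonic length reduced the log2 fold change to -0.28 (edgeR adjusted p = 0.0623). Microglial markers, which stand for the myeloid cells of brain, summed to between 176 and 202 CPM in 3 hr control and between 165 and 189 CPM in 3 hr LTP libraries, so their ranges overlapped; their part in the Cebpa result was not tested.

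At 1 hr the Cebpa values of the groups overlapped, at 13.6, 19.7 and 16 CPM in control replicates 1, 2 and 3 and 16.3, 14.6 and 16.7 CPM in LTP (log2 fold change 0.11, 95% interval from -0.12 to 0.34, edgeR adjusted p = 0.94). The set-aside library held the highest of these values, and with it the log2 fold change was -0.045 (edgeR adjusted p = 0.945). The difference of the LTP effects, 3 hr minus 1 hr, was -0.49 for Cebpa (SE 0.128, interval from -0.76 to -0.21) and missed the adjusted threshold (edgeR adjusted p = 0.387). None of the 7 genes passed that test in edgeR, against 0.0592% of all tested genes (11 of 18584), and Cebpa alone had an unadjusted p under 0.05. By DESeq2 Cebpa was called (-0.5, adjusted p = 0.0834), by limma-voom it was not (adjusted p = 0.393), and with 1 hr control replicate 2 included the edgeR difference was -0.35 (adjusted p = 0.691). For Nfil3 the difference of the effects was 0.036 with an interval from -0.19 to 0.26. It was -0.33 for Cebpb (-0.75 to 0.1), 0.015 for Cebpd (-0.38 to 0.41) and -0.02 for Cebpg (-0.22 to 0.18). Tef had -0.015 (-0.22 to 0.18) and Hlf 0.18 (-0.17 to 0.52).

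Cebpb, which is induced by cAMP signalling in many cells, lay higher in LTP than in the fitted controls at 1 hr without passing the test. Its values were 10.9, 13.5 and 11.3 CPM in control replicates 1, 2 and 3 and 13.9, 13 and 15.5 CPM in LTP. The lowest LTP value was thus above both fitted controls and below the set-aside library. The log2 fold change was 0.36 (SE 0.111, 95% interval from 0.12 to 0.6, edgeR adjusted p = 0.357), and 0.25 (edgeR adjusted p = 0.582) with the set-aside library. The fit with a replicate block, which compares slices of the same animal and keeps 5 libraries, called Cebpb at 0.41 (edgeR adjusted p = 0.0944). That fit rests on the pairs of replicates 1 and 3, with log2 ratios of 0.34 and 0.46, since LTP replicate 2 had no partner in it. The pair of replicate 2 had a ratio of -0.05, and the block over all 3 pairs gave 0.26 without a call (edgeR adjusted p = 0.853). Over all alternatives its adjusted p ran from 0.0944 to 0.943. At 3 hr the control libraries had 20.7, 25.8 and 26 CPM and the LTP libraries 27.8, 19.4 and 25.8 CPM, fully interleaved, with a log2 fold change of 0.024 (interval from -0.3 to 0.35, edgeR adjusted p = 0.948).

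Cebpd, an early factor of inflammatory responses, overlapped between LTP and control at both times. It measured 19, 26.9 and 22.2 CPM in 1 hr control replicates 1, 2 and 3 against 21.2, 22.8 and 24.8 CPM in 1 hr LTP. At 3 hr it measured 31.4, 41.2 and 39.9 CPM in control against 45.8, 35.2 and 44.6 CPM in LTP. The log2 fold changes were 0.16 (95% interval from -0.05 to 0.38, edgeR adjusted p = 0.874) and 0.17 (-0.13 to 0.47, edgeR adjusted p = 0.504). The values depended on single libraries: at 1 hr it was 0.021 with the set-aside library (edgeR adjusted p = 0.973), and with one library left out it ran from 0.057 (control replicate 1) to 0.28 (control replicate 3). At 3 hr it ran from 0.058 (control replicate 1) to 0.29 (LTP replicate 2). At 3 hr LTP replicate 2 was the lowest of its group for both Cebpd and Cebpb, and control replicate 1 likewise, whereas in 1 hr LTP the lowest library was replicate 1 for Cebpd and replicate 2 for Cebpb. Cebpg, the dimer partner, was the flattest gene of the 7, with group means between 37.8 and 38.8 CPM and log2 fold changes of 0.005 (-0.16 to 0.17) at 1 hr and -0.023 (-0.17 to 0.13) at 3 hr.

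As Cebpa was called lower in LTP slices at 3 hr and Cebpb and Cebpd were not, their ratios within each library are given. The ratio of Cebpb to Cebpa, each in CPM per kb, was 1.41, 1.2 and 1.23 in 1 hr control replicates 1, 2 and 3 and 1.49, 1.56 and 1.63 in 1 hr LTP. It was 1.46, 1.65 and 1.67 in 3 hr control and 2.48, 1.71 and 2.19 in 3 hr LTP. Within both time points the LTP libraries lay above the controls, by a narrow margin for 3 hr LTP replicate 2. The ratio of Cebpd to Cebpa overlapped between conditions at 1 hr, where it ran from 0.913 to 1.1. At 3 hr it was 0.888, 1.06 and 1.03 in control and 1.64, 1.25 and 1.52 in LTP. These ratios were formed after the values were seen and were not tested.

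**Figure D3:**
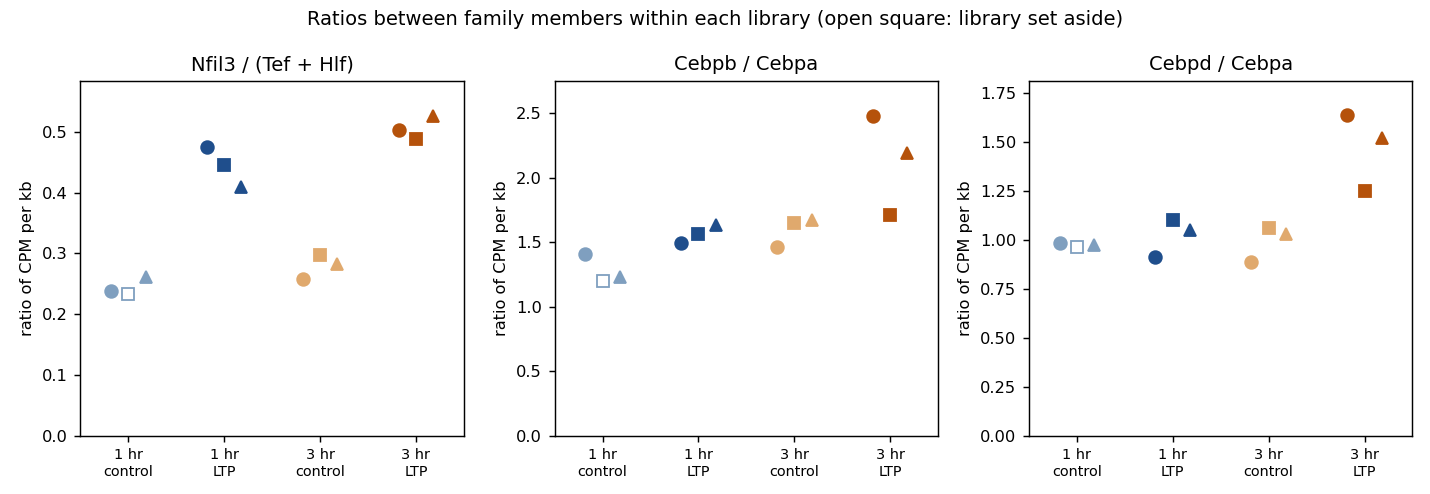
Ratios of CPM per kb within each library (vertical axes, from 0) for Nfil3 over Tef plus Hlf, Cebpb over Cebpa and Cebpd over Cebpa, by group, with the set-aside library as an open square. The Nfil3 ratio lies between 0.234 and 0.298 in controls and between 0.409 and 0.526 in LTP libraries, and the C/EBP ratios are highest in 3 hr LTP.

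With TMM scaling, Cebpa, Cebpb, Cebpd and Nfil3 were called higher at 3 hr than at 1 hr in both conditions. The sizes for Cebpa, Cebpb and Nfil3 depended on the scaling, and for Cebpa in LTP slices the direction did too. Between 1 hr and 3 hr control slices Cebpb rose 2.13-fold (log2 fold change 1.09, SE 0.152, edgeR adjusted p = 0.000255), Cebpd 1.78-fold (0.83, SE 0.14, edgeR adjusted p = 0.000815) and Cebpa 1.75-fold (0.81, SE 0.0966, edgeR adjusted p = 9.66e-05). Nfil3 rose 1.25-fold (0.32, SE 0.0794, edgeR adjusted p = 0.00813). These 4 of the 7 genes were called, against 16.1% of all tested genes called higher in this comparison. Tef passed on adjusted p but not on fold (1.13-fold, edgeR adjusted p = 0.0626), and the log2 fold changes of Hlf and Cebpg were 0.015 (95% interval from -0.25 to 0.27) and -0.018 (-0.17 to 0.13). Cebpa, Cebpb, Cebpd, Nfil3 and Tef had groups that did not overlap, as did 60.7% of all tested genes with 2 against 3 libraries.

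In LTP slices the same 4 genes were called higher at 3 hr than at 1 hr, where 18.6% of all tested genes were. The fold was 1.8 for Cebpd (log2 fold change 0.85, SE 0.123, edgeR adjusted p = 0.000231), 1.7 for Cebpb (0.77, SE 0.131, edgeR adjusted p = 0.000692), 1.28 for Nfil3 (0.36, SE 0.069, edgeR adjusted p = 0.00144) and 1.25 for Cebpa (0.32, SE 0.0852, edgeR adjusted p = 0.0102). Again 5 of the 7 genes did not overlap between the groups, against 44.9% of all tested genes. Hlf (0.19, 95% interval from -0.04 to 0.42) and Cebpg (-0.039, -0.17 to 0.09) did not pass. Tef (0.17, 1.12-fold, edgeR adjusted p = 0.0498) stayed below the fold minimum. Over the alternative fits Tef ran from 0.056 to 0.26 in controls and from 0.025 to 0.23 in LTP slices. The same animal numbers are used at both times, and whether these were the same animals is not given in the sources used here; they were taken as different, in which case time in the bath and animal cannot be told apart.

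The time difference ran with base composition over the whole table. Tested genes with a GC content of at least 60% in their longest transcript had a median log2 fold change of 0.44 between the controls. Genes under 40% had one of -0.27. Cebpb (67.2% GC) and Cebpa (62.6%) are in the first class, while Nfil3 (54.5%) and Cebpd (51.6%) are nearer the middle. With offsets for GC content and exonic length the control difference was 0.41 for Cebpb (edgeR adjusted p = 0.00827) and 0.31 for Cebpa (0.0301), both still called. Cebpd kept 0.77 (edgeR adjusted p = 0.000563), and Nfil3, at 0.22 (0.043), fell below the fold minimum. In LTP slices Cebpb went to 0.26 (edgeR adjusted p = 0.0359) and Cebpa to -0.071 (0.578), whereas Cebpd stayed at 0.81 (0.000103) and Nfil3 at 0.31 (0.00258). The rise of Cebpd between the time points was therefore of much the same size under both scalings, and that of Cebpa in LTP slices was not. The LTP effect on Nfil3 was 0.73 at 1 hr and 0.81 at 3 hr with the offsets. That on Cebpb at 3 hr went from 0.024 to 0.17 (edgeR adjusted p = 0.278). The difference of the LTP effects on Cebpb went from -0.33 to -0.15 (edgeR adjusted p = 0.844).

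**Figure D4:**
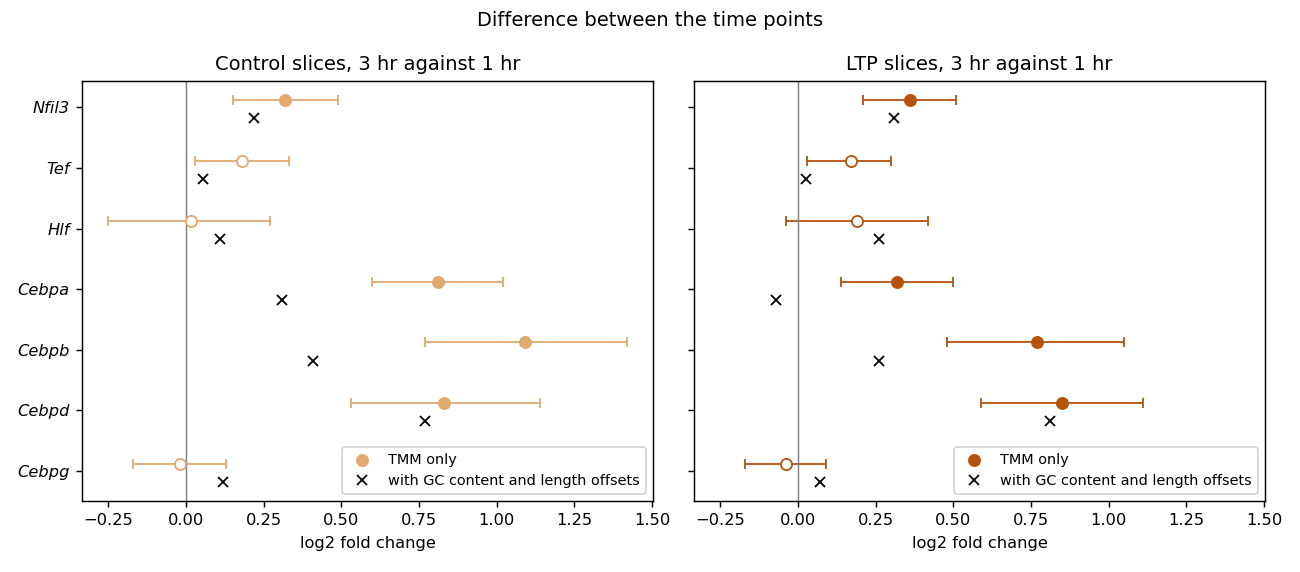
Log2 fold change of 3 hr against 1 hr in control slices (left) and LTP slices (right); circles with 95% confidence intervals come from edgeR with TMM scaling and are filled where called, and crosses give the same fit with offsets for GC content and exonic length. Cebpb in control slices moves from 1.09 to 0.41 and Cebpa from 0.81 to 0.31, while Cebpd moves from 0.83 to 0.77.

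Markers of cell types moved between the time points too, in comparisons where 16.8% of all tested genes in controls and 17.3% in LTP slices were called lower. Of the 6 microglial markers, 5 were called lower at 3 hr in both control and LTP slices, with P2ry12 at a log2 fold change of -1.44 in controls, and in LTP slices their sum went from between 246 and 262 CPM at 1 hr to between 165 and 189 CPM at 3 hr. Oligodendrocyte markers were higher at 3 hr (3 of 5 called in both conditions), with sums of 4500 to 5470 CPM in 1 hr control and 6210 to 7620 CPM in 3 hr control. Mural cell markers were lower (3 of 4 called in both), and of 8 neuronal markers 3 in controls and 2 in LTP slices were called lower. Of 4 endothelial markers 2 were called lower in controls, whereas 2 were called higher in LTP slices. The astrocytic gene Slc1a3 was called lower and Cspg4, of oligodendrocyte precursors, higher in both. Their part in the time difference of the bZIP genes was not tested.

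The tested rest of the family, Dbp and Ddit3, did not pass the edgeR test after LTP. Dbp, the remaining PAR factor, had 33 CPM in 1 hr control and 29 CPM in 1 hr LTP on average (log2 fold change -0.17, edgeR adjusted p = 0.808), and -0.25 at 3 hr (edgeR adjusted p = 0.275). Ddit3, which encodes the stress factor CHOP, stood at 0.02 (edgeR adjusted p = 0.993) and -0.15 (0.309). Cebpe, known from granulocytes, had too few counts to be tested. Between the time points Ddit3 rose in controls (0.32, edgeR adjusted p = 0.0136) and Dbp fell in LTP slices (-0.28, edgeR adjusted p = 0.0647).

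The gene lists that follow were drawn up with earlier results of these data known. The shares called and the medians therefore describe the lists and test nothing. Among 13 dimer partners and regulators of C/EBP proteins, 12 were tested. At 1 hr 4 of them were called higher, beside 0.778% of all tested genes. The list median log2 fold change was 0.1, against -0.001 over all genes. Fos, the activity-induced AP-1 subunit, rose by 1.97 (edgeR adjusted p = 1.67e-09), and Trib1, an adaptor for the degradation of C/EBPα, by 1.24 (9.45e-07). Atf3, a cAMP- and stress-induced bZIP factor, rose by 0.87 (edgeR adjusted p = 0.00137), and Jun by 0.61 (0.00544). At 3 hr, beside 5.07% of all genes, 3 of the 12 were called higher: Fos (1.48, edgeR adjusted p = 0.000109), Atf3 (0.73, 0.0114) and Trib1 (0.67, 0.0689). The list median was then 0.02. Between the controls 5 of the 12 were called higher, beside 16.1% of all genes, and Stat3, which activates Cebpb and Cebpd in inflammatory signalling, had the smallest p of them (0.73, edgeR adjusted p = 7.06e-05). Stat3 and Batf, an AP-1 family factor, were the 2 of the 12 called higher between the LTP groups (0.81, edgeR adjusted p = 9.3e-06, and 0.71, 0.00919), a share no larger than the 18.6% of all genes.

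Of 17 inflammation and acute phase genes with known C/EBP sites, 13 passed the filter, and Saa3, Hp, Orm1 and Nos2 did not. After LTP 3 were called higher at 1 hr, beside 0.778% of all genes: Ptgs2, the inducible cyclooxygenase of neurons and other cells (1.03, edgeR adjusted p = 1.29e-05), the cytokine gene Il6 (1.32, 0.00363) and the chemokine gene Cxcl1 (0.59, 0.0512). At 3 hr, beside 5.07% of all genes, 4 were called higher: Il6 (1.31, edgeR adjusted p = 0.0022), Ptgs2 (0.64, 0.00361), Cxcl1 (0.85, 0.00557) and Il1b (0.93, 0.0583). The list medians were 0.56 at 1 hr and 0.01 at 3 hr. Between the controls 8 of the 13 were called higher, beside 16.1% of all genes, with a list median of 1.14 against -0.019 over all genes, led by the smallest p of Socs3 (1.14, edgeR adjusted p = 2.01e-05), Ccl2 (1.87, 5.89e-05), Ptx3 (1.94, 7.06e-05) and Cd14 (1.61, 8.39e-05). Between the LTP groups, where 18.6% of all genes were, again 8 were called higher, Cd14 (1.82), Cxcl1 (1.25), Ccl2 (1.75) and Il1b (2.4) with the smallest p, and Ptgs2 was called lower (-0.28, edgeR adjusted p = 0.0177).

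The 18 D-box and clock genes all passed the filter, and 3 were called higher at 1 hr after LTP, beside 0.778% of all genes. Ciart, a repressor within the clock, rose by 0.94 (edgeR adjusted p = 7.21e-05), Per1, a cAMP-responsive clock gene, by 0.57 (0.00749) and Bhlhe40, a clock repressor, by 0.38 (0.0114). At 3 hr, beside 5.07% of all genes, Bhlhe40 (0.44, edgeR adjusted p = 0.0273), Per2 (0.48, 0.0474), Per1 (0.52, 0.0749) and Ciart (0.36, 0.0848) were called higher. The other tested genes of the list, with Per3 (0.23 and 0.31) and the PAR target Usp2 (0.25 and 0.31) among them, did not pass the test after LTP. The list medians were 0.1 at 1 hr and 0.08 at 3 hr. Between the time points 6 of the 18 were called higher in controls, beside 16.1% of all genes, first Cry1 (0.93, edgeR adjusted p = 6.51e-05) and Pdxk (0.42, 0.000778), a target of PAR factors. In LTP slices 7 were called higher, beside 18.6% of all genes, and Ciart was called lower (-0.82, edgeR adjusted p = 5.19e-05). The hour of day at which slices were frozen is not given in the sources used here.

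**Figure D5:**
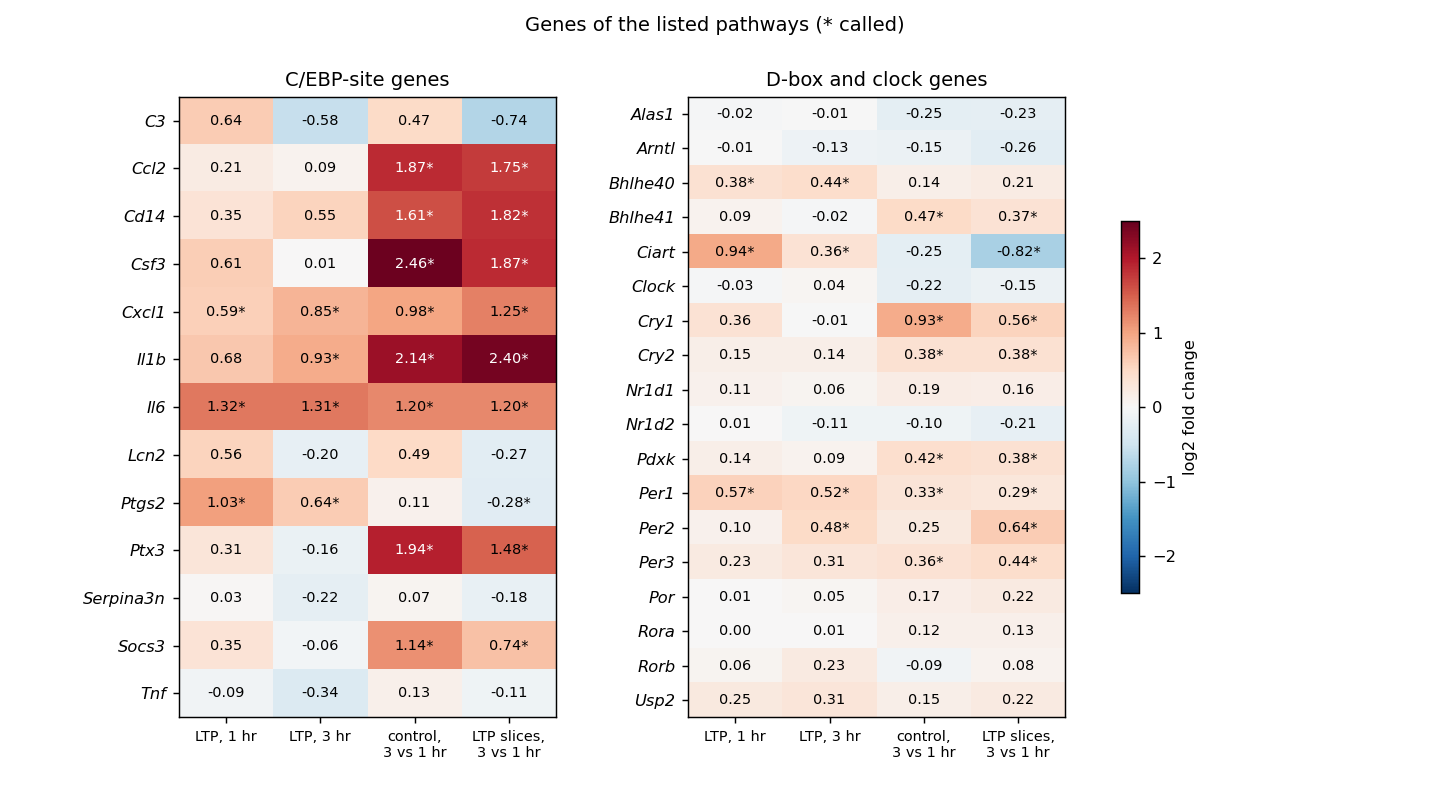
Log2 fold changes (color and printed value; asterisks mark calls) of the tested C/EBP-site genes on the left and of the D-box and clock genes on the right, in 4 comparisons. After LTP 3 genes of each list are called at 1 hr and 4 at 3 hr, and between the time points 8 C/EBP-site genes are called higher in each condition.

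By the Pearson correlation of log2(CPM + 0.1) over the 12 libraries, among 14185 genes averaging 1 CPM or more, Nfil3 was most like Sik1 (r = 0.978) and Gpr19 (0.969). Cebpd was most like Lif (0.986) and Ptpn1 (0.981), and Cebpb was most like Dmrta2 and Cebpd (both 0.966). The nearest genes of Cebpa were Xxylt1 (0.986) and Tor2a (0.985), and those of Tef were Slc26a6 (0.974) and Jpt1 (0.942). Cebpg (Cog3, 0.922, and Fgfr1op, 0.857) and Hlf (Gxylt1, 0.874, and Tdp1, 0.856) had weaker matches. Among the 7 genes themselves r was 0.97 between Cebpb and Cebpd, 0.82 between Cebpa and Cebpb, 0.05 between Nfil3 and Cebpa, and -0.2 between Nfil3 and Tef. The points share the 4 groups and their animals, so these values describe the libraries and carry no test.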

How the data were processed

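The deposited tables, 1 per time point, hold raw read counts per gene that the authors made from ribosome-depleted, stranded, paired-end total RNA libraries aligned with STAR to GRCm38/mm10 and counted with Bioconductor packages. Of 41091 gene IDs, 40217 matched GENCODE M21, which gave symbols, positions and exonic lengths, and 874 did not. GC content was that of the longest transcript of each gene. The 7 genes, the lists and the marker lists were chosen with earlier results of these data known.

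Genes kept by filterByExpr were scaled by TMM and tested with edgeR 4.0.16 (quasi-likelihood, R 4.3.3), and p-values were adjusted by Benjamini-Hochberg over all of them. Each time point was fitted alone (5 libraries at 1 hr, 6 at 3 hr). The difference of the LTP effects and the time comparisons came from 1 model of 11 libraries. The difference was called on adjusted p alone. Self-tests on simulated counts were run first. Tables were joined in Python 3.11.15 with pandas 2.3.3.

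All 7 genes are given in every comparison. From the lists, at most 4 called genes with the smallest p per comparison were named, and other genes named were chosen after their values were seen. The 2 most alike genes were taken by Pearson r.

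Within a time point, LTP and control libraries of one number came from the same animal, per the study's methods. The correlation of their deviations across 18240 genes was -0.017, -0.119 and 0.074 at 1 hr and 0.025, -0.046 and 0.178 at 3 hr. Alternatives were DESeq2 1.42.0, limma 3.58.1 (voom), other scalings and filters, offsets for GC content and exonic length (99.1% of tested genes had a value), a replicate block, 1 hr control replicate 2 included, and each library left out in turn.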

Additional observations from a re-analysis of the deposited data

How the results depend on the processing

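The number of the 7 genes called was 1 at 1 hr and 2 at 3 hr for LTP, 0 for the difference of the effects, and 4 in each time comparison. It became 2 at 1 hr with the replicate block (Cebpb, 0.41, on 2 animal pairs), was 1 again with the block over all 3 pairs (Cebpb 0.26, edgeR adjusted p = 0.853), and became 1 for the difference of the effects by DESeq2 (Cebpa, -0.5). The block changed no other call. With single libraries left out it was 1 throughout at 1 hr, ran from 1 to 3 at 3 hr (Cebpa lost without 3 hr control replicate 2 or 3 or 3 hr LTP replicate 1, Hlf gained without 3 hr LTP replicate 2), was 0 throughout for the difference and ran from 4 to 5 in both time comparisons (Tef gained in controls without 1 hr control replicate 1, Hlf in LTP slices without 3 hr LTP replicate 2). GC and length offsets gave 3 genes in each time comparison, Nfil3 being lost in controls (0.22). In the time comparisons no block was fitted, because the numbers pair libraries within a time point.

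The signs that turned belong to log2 fold changes of 0.18 or less in size that were not called, with 1 exception: Cebpa between the LTP groups, from 0.32 to -0.071 with the offsets. For LTP at 1 hr, Cebpa was -0.045 and Hlf 0.017 with 1 hr control replicate 2 included, and -0.031 and 0.023 when the block was added. Cebpg was -0.023 with the offsets, -0.018 with the block and -0.019 with both. For the difference of the effects, Cebpd was -0.01 with total counts and -0.015 with at least 10 counts required in every library, Cebpg was 0.001 with the block, and Tef was 0.046 with the set-aside library and 0.041 with the block besides. In the control comparison Cebpg was 0.021 with total counts, 0.006 without a filter, 0.014 with at least 10 counts, 0.12 with the offsets and 0.034 with the set-aside library; between the LTP groups it was 0.072 with the offsets. With single libraries left out, ranges that crossed 0 were, for LTP at 1 hr, Cebpa -0.004 to 0.23, Cebpg -0.018 to 0.037 and Hlf -0.18 to 0.17; for LTP at 3 hr, Cebpb -0.087 to 0.17; for the difference, Cebpd -0.13 to 0.11, Cebpg -0.072 to 0.01, Nfil3 -0.008 to 0.1, Tef -0.087 to 0.023 and Hlf -0.034 to 0.31; for the controls, Cebpg -0.014 to 0.022 and Hlf -0.11 to 0.23; and for the LTP groups, Cebpg -0.068 to 0.01. The cause was not tested.

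Over all genes, the count called for LTP at 1 hr was 140 and ran from 69 (without control replicate 1) to 344 (without LTP replicate 3) with single libraries left out, was 347 without a filter and 316 with the block and the offsets. At 3 hr it was 1155 and ran from 228 (without control replicate 2) to 2170 (without LTP replicate 2), and was 1775 with the block and the offsets. For the difference of the effects it was 11, ran from 1 to 67, and was 80 by DESeq2, 102 without a filter, 29 with the offsets, 25 with the block and the offsets and 7 with the block and all libraries. Groups of 2 and 3 libraries limit what could be called. The lowest count of the 7 genes was 424, and the part of counting error in their spread was not tested.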
